A study of Homo sapiens with 4 samples.

Results

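Chromosome 20 contacts that touch no bait were taken from 4 UMI-4C libraries of surface ectoderm cells. A contact is a read pair that joins a pair of 5 kb bins. A bin pair was kept when its bins differed and neither bin began at 55,200,001, 55,380,001 or 55,420,001 (GRCh37), the bins where bait contacts gather. This left 26002 of 32374 contacts between different bins (80.3%), or 21.5% of all 120812 contacts on the chromosome, in 23612 distinct bin pairs out of 36932.

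UMI-4C ligates neighbouring DNA ends in crosslinked nuclei and then amplifies from primers at a chosen bait. Read pairs with no bait end were not the target of that amplification. Ligation in crosslinked nuclei is known to join loci close along the chromosome far more often than distant ones, to favour partners within the same arm, and to add a background of random joins that ignores distance. These properties give the scale against which the contacts are described here.

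All cells came from H9, an established human embryonic stem cell line, differentiated for 7 days in 1 uM retinoic acid with 5 ng/ml BMP4, and fixed in 1% formaldehyde. Chromatin was cut with DpnII, and the bait primers lay at the TFAP2C locus. The groups were wild-type cells (2 libraries) and cells labelled p63-/- (2 libraries), called p63-null. p63, a transcription factor, is needed for epithelia to form layers. The labels number the duplicates but name neither separate cultures nor clones. The p-values therefore measure only how far these libraries differ, and that spread may be technical. The files hold contacts only, so neither the genotype nor the cell type could be checked against marker genes.

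Wild-type replicates 1 and 2 held 6180 and 3521 contacts away from baits, and p63-null replicates 1 and 2 held 5709 and 10592. Among contacts between different bins, those away from baits reached 83.3 and 86.6% in p63-null libraries but 73.6 and 72.1% in wild-type ones. The contacts were spread over the whole chromosome: 11411 bins had at least 1, out of 11822 bins other than baits with any count, and the median bin had 4 over the 4 libraries. The block from 55 to 56 Mb, which contains all 3 bait bins, held 1.59 to 1.80% of the contact ends and ranked 22 among 61 blocks of 1 Mb. Single bin pairs were seen at most 6 times in a library.

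The first comparison asked how far apart the joined bins lay. Distance is the difference between bin starts, so the shortest class, 5-10 kb, holds neighbouring bins only. It can include joins over less than 5 kb that cross a bin border. Neighbouring bins took the largest share, at 21.9 and 22.0% of the contacts in wild-type replicates 1 and 2, against 27.4 and 24.2% in p63-null replicates 1 and 2. The widest Wilson 95% interval was that of wild-type replicate 2, from 20.70 to 23.44%. That of p63-null replicate 1 ran from 26.2 to 28.5%, and that of p63-null replicate 2 from 23.41 to 25.04%. The interval of p63-null replicate 2 thus slightly overlapped that of wild-type replicate 2. The p63-null shares themselves lay above the wild-type shares. Intervals and expectations here cover counting error only.

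The class from 100 to 500 kb came next. Wild-type libraries held 19.4 and 19.7% of their contacts there, and p63-null libraries 16.3 and 17.7%. Both p63-null libraries were lower. The remaining classes up to 1 Mb each took between 6.17 and 8.21% in every library. Contacts of 1-5 Mb took 10.8 to 11.2%, those of 5-20 Mb 9.51 to 10.3% and those over 20 Mb 7.09 to 7.82%.

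**Figure D1:**
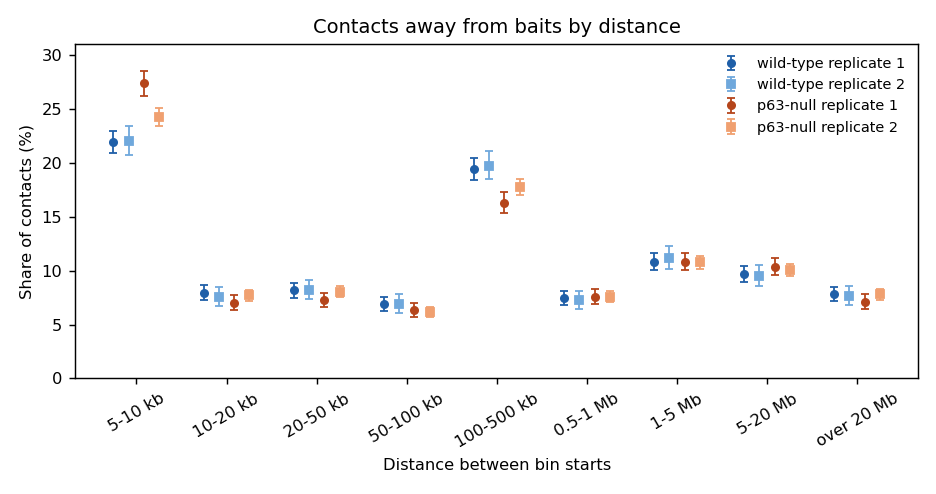
Share of contacts away from baits (vertical axis, percent) in 9 distance classes (horizontal axis). Each point is 1 library, circles for replicate 1 and squares for replicate 2, and bars are Wilson 95% intervals. The p63-null libraries sit above the wild-type libraries at 5-10 kb (27.4 and 24.2 against 21.9 and 22.0%) and below them at 100-500 kb.

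None of the 9 classes passed the comparison of genotypes with edgeR's quasi-likelihood test (0%), and 2 had an unadjusted p under 0.05 (22.2%). On simulated counts of the same size, 70% of classes changed 1.25-fold and 10% of those changed 1.1-fold were called, so small changes could be missed. Neighbouring bins took 22.0% ± 0.11 of wild-type contacts against 25.8% ± 2.22 of p63-null ones (SD, n = 2 each). The log2 fold change was 0.23 (SE 0.10, 95% interval -0.01 to 0.46; edgeR adjusted p 0.171). At 100-500 kb the shares were 19.6% ± 0.24 and 17.0% ± 1.03, and the log2 fold change was -0.19 (SE 0.07, interval -0.36 to -0.02; the same adjusted p). The class of 50-100 kb, the second one under 0.05 before adjustment, held 6.89% ± 0.02 and 6.24% ± 0.11.

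The genotypes did not overlap in 7 of the 9 classes (77.8%), in 3 of them with p63-null cells higher and in 4 with p63-null cells lower. The classes divide 1 total, so their shares move together. A two-sided exact permutation test of 2 against 2 libraries cannot give a p below 0.33. That was the p of each of the 7 classes.

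Calls changed when either p63-null library was left out. Without p63-null replicate 1, neighbouring bins passed at a log2 fold change of 0.14 (edgeR adjusted p 0.00658), and without p63-null replicate 2 at 0.32 (9.87e-08). The class of 100-500 kb then passed too, at -0.14 (adjusted p 0.0154) and -0.26 (0.000108). In both fits the lone p63-null library was assumed to vary like the wild-type libraries. Those agreed within sampling noise in their distance classes, with a chi-square per degree of freedom of 0.14 against 3.41 between the p63-null libraries. DESeq2 also called 100-500 kb, at -0.14 (SE 0.04) and an adjusted p of 0.00694. That SE holds counting error only, with no spread between replicates, and the SE of neighbouring bins in DESeq2 was 0.19.

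Contacts inside single bins made up 76.8% of all contacts in p63-null replicate 1, the library with the largest share of neighbouring bins. p63-null replicate 2, which was also above both wild-type libraries at neighbouring bins, had 72.3% inside single bins, within the 70.8 to 72.3% of the wild-type libraries. The part of such contacts in the result was not tested. With neighbouring bins left out, the class of 100-500 kb still held less in both p63-null libraries, at 22.9% ± 0.70 against 25.1% ± 0.34 of the wild-type contacts. The class of 5-20 Mb then held 13.7% ± 0.69 of p63-null and 12.3% ± 0.11 of wild-type contacts. Neither class passed (edgeR adjusted p 0.148 each).

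Contacts that touch a bait had another distribution. In all 4 libraries bait contacts had less in neighbouring bins (6.91 to 8.23%) and more at 100-500 kb (28.2 to 32.9%). They also had more at 5-20 Mb, with 13.7 to 22.1% against 9.51 to 10.3% of contacts away from baits. A two-sided exact sign-flip test over 4 libraries gave 0.125 for each of these classes, the smallest p it can give. It gave the same p at 50-100 kb and over 20 Mb, where bait contacts had more. The p was also the same at 0.5-1 Mb and 1-5 Mb, where bait contacts had less. Bait contacts include those that join a bait bin to another bait bin. The bait bin at 55,200,001 lies 100-500 kb from the other bait bins, so its contacts with them count in that class. The part of such contacts in the higher share at 100-500 kb was not tested.

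Contacts were then set against a random-ligation expectation. Under it, both bins of a contact are drawn in proportion to the contact ends each bin has in that library, with the same total. The expectation keeps uneven depth and mappability of bins and drops any effect of distance. It would put 45.9 to 46.7% of contacts over 20 Mb apart and only 0.0191 to 0.0220% in neighbouring bins.

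Observed contacts fell with distance across this expectation. For neighbouring bins the ratio of observed to expected contacts was 1103 and 1002 in wild-type replicates 1 and 2, against 1320 and 1265 in the p63-null libraries. At 100-500 kb the ratio was 14.2 and 14.3 against 11.8 and 12.9. At 0.5-1 Mb it was 4.26 to 4.43, with all 4 libraries inside each other's counting intervals.

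The ratio fell below 1 in the class of 1-5 Mb, where it was 0.84 to 0.88. Contacts of 5-20 Mb reached 0.259 and 0.251 of the expectation in wild-type libraries against 0.277 and 0.268 in p63-null ones. Contacts over 20 Mb reached 0.167 and 0.166 against 0.152 and 0.168. Beyond that the ratio had little further slope: it averaged 0.166 ± 0.009 at 20-40 Mb and 0.159 ± 0.023 over 40 Mb (SD, n = 4).

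**Figure D2:**
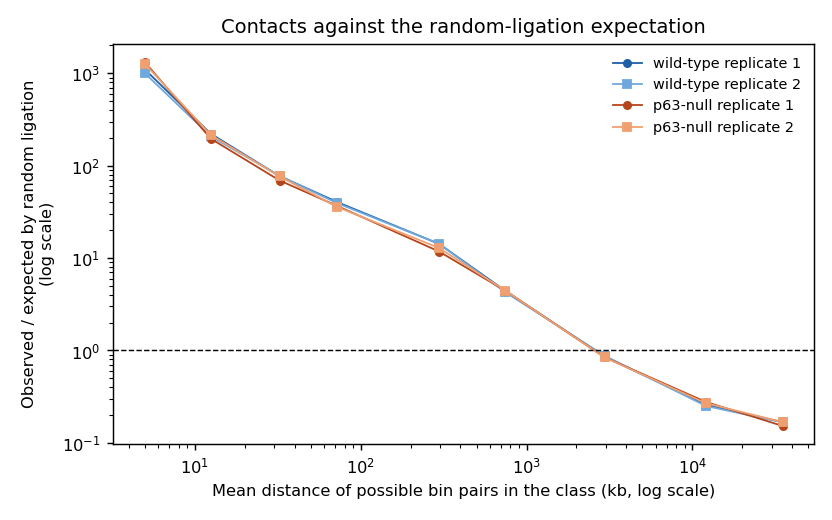
Ratio of observed contacts to the random-ligation expectation (vertical axis, log scale) against the mean distance of possible bin pairs in each class (horizontal axis, kb, log scale), 1 line per library. The dashed line marks a ratio of 1. All 4 libraries cross it between the classes of 0.5-1 Mb and 1-5 Mb and end between 0.152 and 0.168.

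These ratios bound random ligation. If every contact over 20 Mb had been random, random joins would have made up 16.7% (interval 15.3 to 18.3) of the contacts away from baits in wild-type replicate 1 and 16.6% (14.7 to 18.8) in replicate 2. The same bound was 15.2% (13.8 to 16.8) in p63-null replicate 1 and 16.8% (15.7 to 18.0) in replicate 2. At this rate they would supply at most 1.17 to 1.31% of the contacts at 100-500 kb, 18.08 to 19.998% of those at 1-5 Mb and 55.0 to 66.3% of those at 5-20 Mb.

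The steepness of this fall was compared between genotypes. On a log-log scale the slope of contacts per possible bin pair between 10 kb and 5 Mb was -0.99 and -0.98 in wild-type replicates 1 and 2, and -0.96 and -0.98 in p63-null replicates 1 and 2. The groups overlapped (-0.982 ± 0.006 and -0.971 ± 0.012, SD, n = 2 each, exact permutation p 0.67). Between 20 kb and 1 Mb the slopes were -0.89 and -0.90 against -0.87 and -0.88, and the groups did not overlap (exact permutation p 0.33).

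Chromosome arms were compared next, with the short arm taken up to position 26,000,000 and the long arm from 29,500,001. Contacts within the short arm made up 41.8 and 43.9% in wild-type libraries against 43.7 and 42.3% in p63-null ones. Those within the long arm made up 49.3 and 47.7% against 47.9 and 48.9%. Contacts between the arms made up 8.12 and 7.64% against 7.37 and 8.14%, where random ligation would give 49.3 to 49.5%. The genotypes overlapped in all 3 classes.

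Contacts between arms reached 0.165, 0.154, 0.150 and 0.165 of the random expectation in wild-type replicates 1 and 2 and p63-null replicates 1 and 2. Contacts within the short arm reached 1.91 to 1.96 and those within the long arm 1.73 to 1.80. Pairs in different arms also lie farther apart than pairs of 1 arm.

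Distance was then matched in steps of 1 Mb from 5 to 25 Mb, a choice made after the data were seen. Bins in different arms met less often than bins of 1 arm at the same distance in each of the 4 libraries. Distance is a difference of positions here, and every pair between arms spans 27 to 29 Mb, where no bin held contacts. Wild-type replicate 1 had 159 contacts between arms against 214.1 expected from the within-arm rate, a ratio of 0.743 (counting interval 0.632 to 0.867). Wild-type replicate 2 had 66 against 148.8, a ratio of 0.444 (0.343 to 0.564). p63-null replicates 1 and 2 had 116 against 191.3 and 244 against 399.4, ratios of 0.606 (0.501 to 0.727) and 0.611 (0.537 to 0.693).

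The mean ratio over the libraries was 0.601 ± 0.122 (SD, n = 4). All 4 ratios lay below 1, for which the two-sided exact sign-flip p is 0.125, the smallest that 4 libraries allow. The p63-null ratios lay between the wild-type ratios. The counting intervals of the wild-type libraries did not overlap, but they leave out the counting error of the within-arm rate. That rate rested on 548 and 320 contacts within arms in wild-type replicates 1 and 2.

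**Figure D3:**
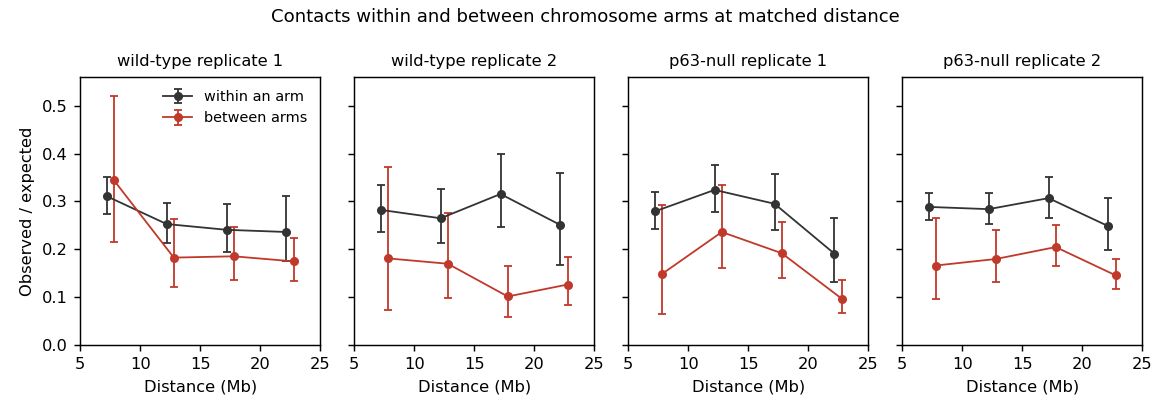
Ratio of observed contacts to the random-ligation expectation (vertical axis) by distance in steps of 5 Mb (horizontal axis), for bins of the same arm (black) and of different arms (red), 1 panel per library. Bars are exact Poisson 95% intervals. The red points lie below the black ones in every step but 5 to 10 Mb of wild-type replicate 1 (0.344 against 0.311).

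A class of its own was formed by pairs with a bin between these positions, around the centromere, which held 215 contacts. A single separation stood out there. Contacts between bins exactly 3.55 Mb apart numbered 77 over the 4 libraries, where other separations from 3 to 4.1 Mb had a median of 2 and a maximum of 11. No other separation over 1 Mb held more than 15.

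Of these 77 contacts, 74 joined a stretch at 25,870,001 to 25,965,000 on the short-arm side to one at 29,420,001 to 29,515,000 on the long-arm side, in 16 bin pairs. Wild-type replicates 1 and 2 held 26 and 6 of them, and each p63-null library held 21. Wild-type replicate 2 was lowest, also as a share of the contacts of 1-5 Mb: 1.53% against 3.89, 3.40 and 1.84% in wild-type replicate 1 and p63-null replicates 1 and 2.

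The pairing followed position along both stretches. The 342 possible bin pairs between them at other separations held 12 contacts, in 6 pairs. All 12 bin pairs of 20 kb or more with at least 4 contacts over the libraries lay at this separation. The highest 5 began at 25,920,001 (9 contacts), 25,870,001 (8), 25,905,001 (7), 25,885,001 (6) and 25,900,001 (6) on the short-arm side. Contacts at this separation were 49.7% of all contacts of the bins in the stretches away from baits. Whether both stretches carry similar sequence was not tested, because no GRCh37 sequence was used.

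**Figure D4:**
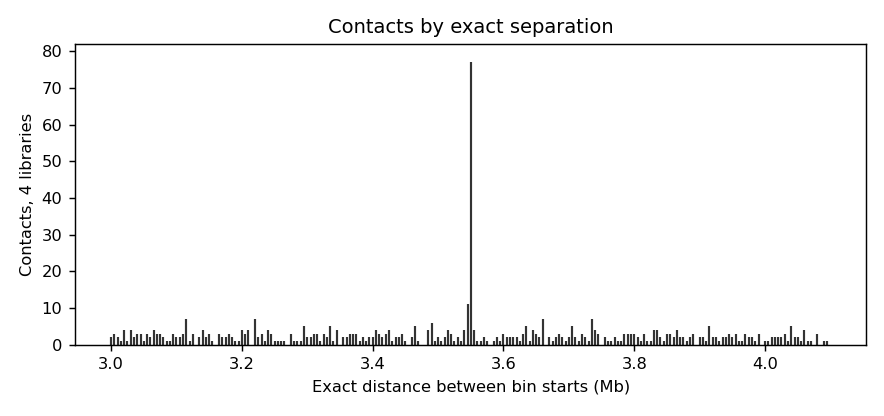
Contacts over the 4 libraries (vertical axis) for each exact separation of bin starts from 3 to 4.1 Mb (horizontal axis, steps of 5 kb). The line at 3.55 Mb reaches 77 contacts, and the highest of the others 11.

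Most bin pairs were seen in a single library. Of the 23612 distinct pairs, 22421 were seen in 1 library, 993 in 2, 179 in 3 and 19 in all 4. Wild-type replicates 1 and 2 shared 145 pairs, which was 2.42% of the pairs of replicate 1 and 4.19% of those of replicate 2, so they were not 1 library deposited a second time. The p63-null libraries shared 415, which was 7.54 and 4.12% of their pairs.

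At 20 kb and over, 92 distinct pairs were seen in 2 or more libraries, and 13 of them were 3.55 Mb apart. Summed over the 6 combinations of libraries, where a pair in 3 or 4 libraries counts more than once, there were 118 shared pairs against 60.4 expected from bin totals and distance. Without pairs 3.55 Mb apart this sum was 81, against 60.4 expected. The counting interval of that ratio, which takes the 6 combinations as independent, was 1.07 to 1.67. From 20 kb to 1 Mb, which leaves out that separation, libraries of the same genotype shared 10 (6.25 expected, counting interval of the ratio 0.767 to 2.94) and 15 pairs (13.8 expected, 0.608 to 1.79). Libraries of different genotypes shared between 5 (10.1 expected) and 24 (15.4 expected) there. Both intervals for libraries of the same genotype include 1.

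Within a library, pairs at 20 kb and over seen more than once numbered 20 and 9 in wild-type replicates 1 and 2 and 23 and 49 in p63-null replicates 1 and 2. The expectation was 15.8, 11.4, 12.1 and 27.9. These pairs held 0.726 to 1.44% of the contacts at those distances. Among neighbouring bins, pairs seen more than once held 21.3 and 11.5% of the contacts in the wild-type libraries, against 20.7 and 31.6% in the p63-null ones. Depth differed too, with 1352 and 776 against 1562 and 2565 contacts between neighbouring bins. The lowest share came with the lowest count and the highest share with the highest count. The part of depth in these shares was not tested. Counting each pair once per library lowered the log2 fold change of neighbouring bins to 0.17. The difference in their share fell from 3.83 to 2.57 percentage points, and the genotypes then overlapped (exact permutation p 0.67).

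The pairs with the most contacts among neighbouring and next bins all joined direct neighbours. The first, 19,375,001 to 19,380,000 with 19,380,001 to 19,385,000, was joined 3 times in each wild-type library and 6 times in each p63-null library. Per contact the genotypes overlapped, at 0.0485 and 0.0852% against 0.105 and 0.0566%. The second, beginning at 35,395,001, was joined 3 and 0 against 3 and 5 times.

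A few single bins had many contacts with many partners. With 70 partners, the bin at 24,460,001 came first, at 10 and 25 contacts in wild-type against 27 and 26 in p63-null libraries. The bin at 13,300,001 had 12 and 29 against 12 and 24, with 59 partners, and that at 55,960,001 had 13 and 15 against 15 and 12, with 46 partners. The 99th percentile of bins was 12 over the 4 libraries together. These bins were also rich in contacts inside the bin itself, with a mean of 74, 42.5 and 120.5 per library. Whole libraries held 11862 to 31961 such contacts, on a chromosome with 11822 bins other than baits with any count.

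Contacts over 20 Mb were 3 of 88 for the bin at 24,460,001 (3.41%, Wilson 95% interval 1.17 to 9.55%), 4 of 77 at 13,300,001 (5.19%, 2.04 to 12.6%) and 7 of 55 at 55,960,001 (12.7%, 6.30 to 24.02%). All 3 intervals include the 7.63% of all contacts. Contacts over 1 Mb were 15.9, 31.2 and 40% for the same bins, against 28.4% of all contacts, with no test. The other two of the 5 busiest bins, at 19,375,001 and 19,380,001, had 29 and 25 contacts, 18 of them with each other. Wild-type replicate 2, the library with the fewest contacts, had the most contacts of the bin at 13,300,001. Leaving out the first 3 turned no direction among the 9 distance classes.

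Contact ends were then counted in 1 Mb blocks, which asks whether any part of the chromosome gained or lost contacts. The 61 blocks with contacts held between 0.305 and 2.43% of the ends (mean of 4 libraries), with a median of 1.63%. The richest were 14 to 15 Mb (2.43%), 15 to 16 Mb (2.29%), 11 to 12 Mb (2.18%), 6 to 7 Mb (2.17%) and 7 to 8 Mb (2.13%), all on the short arm. The poorest lay beside the centromere, at 26 to 27 Mb (0.305%, 53 bins with any count) and 29 to 30 Mb (0.591%, 86 bins), followed by the blocks beyond 60 Mb. Per bin with any count the order turned: these 2 blocks held 2.91 and 3.60 ends over the 4 libraries, and those from 60, 61 and 62 Mb held 2.45, 1.87 and 2.02. Block shares correlated between replicates across blocks, which are not independent, at Pearson's r of 0.784 (wild-type) or 0.904 (p63-null), and between genotypes at 0.762 to 0.837.

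No block passed the edgeR test (0%), and 6 had an unadjusted p under 0.05 (9.84%). DESeq2 also called 0 blocks, with 3 under 0.05 before adjustment (4.92%). The genotypes did not overlap in 27 of 61 blocks (44.3%), with p63-null higher in 12 and lower in 15. On simulated counts of the same size, 85% of blocks changed 1.5-fold and 13.3% of those changed by a factor of 1.25 were called, so smaller changes could be missed. The simulated ends were independent and equally variable in every block. In the data a contact inside a block adds both its ends to it, so these rates may be too high.

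The 5 blocks with the smallest p are described although none passed. The block from 59 to 60 Mb held 1.67 and 1.82% of the wild-type ends against 1.22 and 1.29% of the p63-null ends. Its log2 fold change was -0.45 (SE 0.10, 95% interval -0.67 to -0.23; edgeR adjusted p 0.0782). The block from 34 to 35 Mb held 1.72 and 1.70% against 1.30 and 1.34% (log2 fold change -0.37, SE 0.09, adjusted p 0.0935). These were the 2 smallest adjusted p-values in edgeR.

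The block from 2 to 3 Mb held 1.92 and 1.60% of wild-type ends against 1.38 and 1.45% (log2 fold change -0.34, edgeR adjusted p 0.322). That from 40 to 41 Mb held 1.50 and 1.46% against 1.76 and 1.79% (0.26, adjusted p 0.447). The block from 15 to 16 Mb held 1.72 and 2.12% against 2.93 and 2.40% (0.48, adjusted p 0.447). The p63-null libraries lay on 1 side of the wild-type libraries in each of the 5 blocks, and choosing blocks by p favours this. Without wild-type replicate 1 the log2 fold change was -0.18 for 2 to 3 Mb and 0.31 for 15 to 16 Mb.

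Calls among blocks changed with the fit. With contacts of 20 kb and over only, the block from 15 to 16 Mb passed, at a log2 fold change of 0.50 (edgeR adjusted p 0.000447), while that from 59 to 60 Mb went to -0.34 (adjusted p 0.277). Without wild-type replicate 1, the block from 60 to 61 Mb passed, at 1.17 (adjusted p 0.0409). There wild-type replicate 2 held 0.440% of its ends and the other 3 libraries 0.977 to 1.02%.

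**Figure D5:**
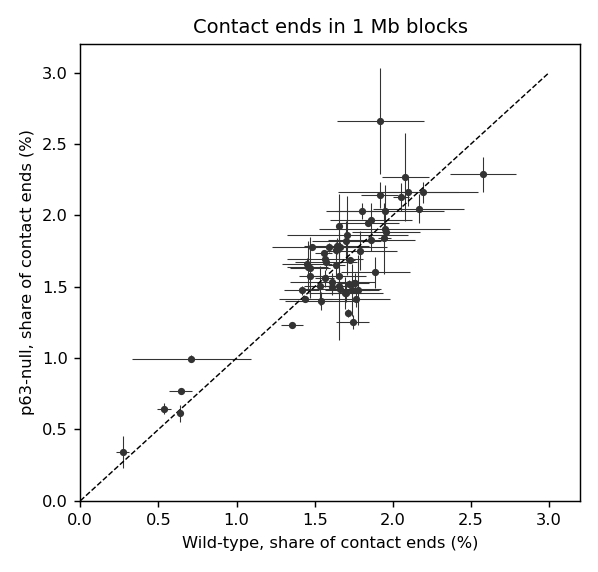
Share of contact ends in each of 61 blocks of 1 Mb, wild-type (horizontal axis, percent) against p63-null (vertical axis, percent). Points are means of 2 libraries and bars are SD. The dashed line marks equal shares. Most blocks lie near it, and the highest p63-null value is 2.66% for the block from 15 to 16 Mb.

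Blocks also differed in how far their contacts reached, a measure chosen after the data were seen. In blocks of 5 Mb, the share of contact ends from contacts of 5 Mb and over was highest from 60 to 63 Mb, the end of the long arm, in each of the 4 libraries. It was 24.6 and 28.0% in wild-type libraries against 26.4 and 22.4% in p63-null ones. The lowest mean was from 10 to 15 Mb, within the short arm, at 14.5 and 13.5% against 12.7 and 14.5%. The genotypes overlapped in both blocks.

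Pairs of distant 1 Mb blocks were also counted. Of 1468 block pairs with every bin at least 5 Mb apart and at least 5 expected contacts, the median ratio to random ligation was 0.191 and 3 pairs reached 1. The 5 highest were 45 to 46 with 60 to 61 Mb (10 contacts, 8.03 expected), 55 to 56 with 61 to 62 Mb (6, 5.63 expected), 33 to 34 with 62 to 63 Mb (6, 5.78), 43 to 44 with 61 to 62 Mb (5, 5.23) and 35 to 36 with 61 to 62 Mb (5, 5.26). Each joined a block beyond 60 Mb to another of the long arm. These blocks hold few ends, so each ratio rests on 10 contacts or fewer, and with the lower bounds of their counting intervals at 0.309 to 0.597 none was shown to exceed random ligation. A second expectation was scaled to the contacts seen in each distance class. Against it the same 5 pairs reached 4.66, 4.01, 6.32, 3.60 and 5.77, with no test. They were picked as the highest of 1468 on the ratio to random ligation. On the scaled ratio, 40 to 41 with 61 to 62 Mb (4.44) and 34 to 35 with 60 to 61 Mb (4.43) lay above some of them. The scaling was not matched to arm. Contacts over 20 Mb within the long arm reached 0.253 to 0.300 of random ligation, against 0.152 to 0.168 for that whole class.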

How the data were processed

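For each library the authors deposited raw counts per pair of 5 kb bins along chromosome 20. HiC-Pro, Bowtie and build hg19 (GRCh37) are named, per the submitters' processing notes. Whether copies of the same ligation product were counted once, and the tools' versions, are not given in the sources used here.

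Distance classes (lower bound included) and 1 Mb blocks with at least 10 contact ends were compared with edgeR 4.0.16 in R 4.3.3, without normalization factors, with Benjamini-Hochberg adjustment over the 9 classes or 61 blocks and a threshold of 0.05. A contact adds an end to the block of each of its bins. Standard errors and intervals were derived from the quasi-likelihood p. Shares have Wilson and ratios exact Poisson 95% intervals (SciPy 1.17.1). The tests and the expectation were tried on simulated counts. In simulated random ligation the ratios over 1 Mb were 0.905 to 1.03. Those contacts were drawn in the way the expectation assumes, so this checked the calculation only. Named regions were all classes, the 5 blocks with the smallest p and the 5 with most ends, the 5 busiest bins, the 5 highest bin pairs of 20 kb and over and the 5 highest block pairs. The pairs under 20 kb apart were added. Members and lists were chosen with earlier results of these data known. Alternatives were TMM, DESeq2 1.42.0, replicate blocks, leaving out libraries, other filters, regions and expectations. A depth of 3521 to 10592 contacts per library puts the floor of a share (3 contacts) at 0.0283 to 0.0852%.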

Additional observations from a re-analysis of the deposited data

How the results depend on the processing

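Calls depended on the fit. The number of distance classes that passed was 0 in the edgeR test as reported, 1 with DESeq2 and 0 to 2 over the fits that leave out a library, where a lone library was assumed to vary like the other group. For 1 Mb blocks it was 0, against 1 with the replicate block, 1 with the crossed replicate block and 1 with contacts of 20 kb and over, and 0 to 1 over the fits without a library. The block from 59 to 60 Mb passed with the replicate block (log2 fold change -0.47, edgeR adjusted p 0.00967) and that from 15 to 16 Mb with the crossed one (0.47, 2.48e-05). Same-numbered replicates had deviations correlated at -0.27 over distance classes and -0.12 over blocks, and the labels give the numbers no meaning, so no pairing was used. No distance class passed with either block. With the replicate block the log2 fold change was 0.23 in neighbouring bins and -0.20 at 100-500 kb.

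Directions turned only in classes near 0. The log2 fold change of 1-5 Mb went from -0.02 to 0.0104 with TMM, 0.0121 with DESeq2, 0.00505 with each pair counted once and 0.0411 with contacts of 10 kb and over. Under the last, that of 10-20 kb became 0.000513 and that of over 20 Mb 0.0268, and the latter ranged from -0.128 to 0.0105 over the fits without a library, highest without p63-null replicate 1. The cause was not tested. The ratio of shared to expected pairs of 20 kb and over, summed over combinations of libraries, was 1.95. It was 1.34 without pairs 3.55 Mb apart and 1.63 to 2.47 when 1 library was left out. The ratio over 20 Mb, the ratio between arms, the sign of the slope difference and that of the 5-10 kb share difference held in all alternatives run for them. With each pair counted once, however, the genotypes overlapped in the 5-10 kb share (exact permutation p 0.67). A uniform expectation moved the ratio within the short arm from 1.93 to 2.25 and within the long arm from 1.77 to 1.56.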
